A study of Mus musculus with 8 samples.

Results

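Of the 112301 merged H3K27ac regions found in mouse small intestinal crypts, 10704 lay in gene deserts. Of those, 1563 were kept as the desert regions described here. A desert region was under 5 kb wide, had an H3K27ac peak in at least 4 of 8 peak lists, lay outside every protein-coding gene and was over 100 kb from the nearest end of one. Regions of the same width and list count numbered 35844 in all, so the H3K27ac lists themselves chose the members and their H3K27ac values are given below as description, with no test.

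CUT&Tag, a method that tethers a transposase to antibody-bound chromatin so that the DNA around a mark can be cut out and sequenced, was done for 2 histone marks, H3K27ac and H3K9ac, in crypt cells of 9-week-old male C57BL/6J mice. The series, titled as a study of how fasting, the microbiome and metabolites act on chromatin in intestinal regeneration, has 4 groups for each mark: Fed and Fast without tetracycline, and Fed and Fast with it. Fast mice went 24 h without food, and tetracycline, an antibiotic, was given for 21 days. Each group has 1 sample per mark and each sample 2 peak lists, called list 1 and list 2 here. Whether those lists come from different mice is not said in the labels, so permutation p-values measure the spread between lists, which may be technical, and are too small if the lists are repeats of a sample. Crypts were shaken loose and dissociated to single cells, and labelled as epithelial cells, with no sort for epithelium named. Of 10 epithelial marker genes, all 10 had an H3K27ac peak within 1 kb of a gene end in each of the 8 lists. Per list, such a peak was found at 2 to 6 of 10 immune genes and at 0 or 1 of 10 genes of mesenchyme, vessels and nerve. Cd79a, a B cell receptor component, was marked in 8 lists and Nkg7, of cytotoxic lymphocytes, in 7, while Cd4 and Csf1r were marked in 0.

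H3K27ac is an acetylation of histone H3 laid down by p300 and CBP and is found at active enhancers and promoters. H3K9ac is most abundant at active promoters. Gene deserts are long stretches without protein-coding genes, and those beside regulators of development and cell identity are known to carry enhancers that act over long distances.

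Some of the desert regions lay on the start of a noncoding gene, and these are the ones whose sequence could be read here. RefSeq promoter windows of 300 bp (250 bases before to 50 after the start, GRCm38.p6) overlapped 69 of the 1563 desert regions, with 77 windows of 68 genes. The windows printed are the 4 that lay wholly inside a desert region and had H3K9ac in the most lists, and they are shown as examples of noncoding promoters at desert regions with both marks. Each is read 5′ to 3′ on the strand of its gene, with matches to a GC box (GGGCGG, either strand) or to a CCAAT box (CCAAT, either strand) in capitals. Gm29998 is at chr19:33391551-33391850 on the plus strand, Gm27572 at chr13:108498537-108498836 on the minus strand, Firre at chrX:50635272-50635571 on the minus strand and Gm14636 at chrX:19237801-19238100 on the minus strand.
Gm29998: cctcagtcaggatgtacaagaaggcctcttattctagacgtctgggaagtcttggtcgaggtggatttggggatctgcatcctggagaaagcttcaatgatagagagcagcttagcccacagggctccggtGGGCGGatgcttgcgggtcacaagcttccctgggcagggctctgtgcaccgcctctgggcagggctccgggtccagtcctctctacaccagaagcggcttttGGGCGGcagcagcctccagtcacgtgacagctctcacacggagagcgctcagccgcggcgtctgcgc
Gm27572: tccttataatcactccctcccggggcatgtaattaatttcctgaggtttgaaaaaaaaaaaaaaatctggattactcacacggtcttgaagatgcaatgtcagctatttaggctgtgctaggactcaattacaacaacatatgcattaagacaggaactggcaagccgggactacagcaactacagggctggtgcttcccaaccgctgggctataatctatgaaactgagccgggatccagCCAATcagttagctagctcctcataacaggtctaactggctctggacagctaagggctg
Firre: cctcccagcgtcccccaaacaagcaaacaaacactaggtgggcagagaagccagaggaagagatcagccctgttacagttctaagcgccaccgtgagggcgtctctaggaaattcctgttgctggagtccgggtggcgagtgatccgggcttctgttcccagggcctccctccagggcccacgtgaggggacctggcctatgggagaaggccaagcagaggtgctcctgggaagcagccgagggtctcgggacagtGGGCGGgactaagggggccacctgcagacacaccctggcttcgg
Gm14636: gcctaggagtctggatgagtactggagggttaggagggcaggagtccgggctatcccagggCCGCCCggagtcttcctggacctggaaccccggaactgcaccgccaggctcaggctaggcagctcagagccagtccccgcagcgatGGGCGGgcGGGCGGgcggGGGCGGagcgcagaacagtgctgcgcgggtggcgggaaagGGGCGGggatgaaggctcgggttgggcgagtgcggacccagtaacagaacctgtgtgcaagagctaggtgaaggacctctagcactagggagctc
Gm29998, Firre and Gm14636 held GC boxes, with a GC content of 61.0%, 62.7% and 67.3%, and Gm27572 held a CCAAT box and had a GC content of 45.7%. All 4 genes are lncRNAs, and Firre is known for its part in nuclear organisation from the X chromosome. The desert regions under the 4 windows had H3K27ac in 8, 8, 8 and 7 lists and H3K9ac in 8, 7, 7 and 7 lists, in the order printed.

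A pair of desert regions held a miRNA hairpin, and the 3 mature miRNAs of those hairpins are given from RefSeq with the seed (bases 2 to 8), which pairs with target RNAs, in capitals. The 3 seeds differ from one another.
mmu-miR-802-5p: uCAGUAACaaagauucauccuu
mmu-miR-802-3p: aCGGAGAGucuuugucacucag
mmu-miR-7214-3p: cUCAGUCCugaccccuugagcgca
The region with Mir802, chr16:93369366-93370792, lay between Runx1 and Setd4 and 212.7 kb from the latter. All 8 H3K27ac lists had a peak there, as did 4 Fast and 2 Fed lists of H3K9ac. Its H3K27ac score, ranked among all peaks of the same list and given as a percentile, was 41.3 and 78.9 in Fed lists 1 and 2 without tetracycline and 80.1 and 84.3 in the Fast lists. With tetracycline the percentiles were 35.3 and 76.6 in the Fed lists and 75.6 and 50.9 in the Fast lists, so the lowest ranks were those of both Fed lists numbered 1. The Mir7214 region, chr17:27316887-27318189, was near the low end of the rule, with H3K27ac in 4 lists, of which 2 were Fast, and H3K9ac in 3.

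The desert regions were narrow and of middling rank. Their median width was 1239 bp (quartiles 984 and 1690), against 1343 bp in near intergenic regions, which are those over 1 kb and up to 100 kb from a gene end. Within-gene regions (over 1 kb from an end) had a median of 1376 bp and gene-end regions (within 1 kb) one of 1869 bp. These 3 classes hold 9465, 14943 and 9873 regions chosen by the same width and list count. The median score percentile was 48.1 in the deserts, 53.0 near genes, 51.5 within them and 70.3 at gene ends, and it was lower in the deserts than in near intergenic regions in 8 of 8 lists. A peak was present in all 8 lists at 447 desert regions (28.6%), against 36.6% of near intergenic, 35.98% of within-gene and 62.1% of gene-end regions. The other desert regions were spread over 4 lists (334), 5 (255), 6 (247) and 7 (280).

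Distance to the nearest protein-coding gene end ran from 100.1 to 2133 kb, with a median of 176.2 kb and quartiles of 131.5 and 266.0 kb, and 107 regions were over 500 kb away. At the threshold, the nearest members were chr1:31049929-31051105 with 8 lists and chr3:144305333-144306229 with 4, both 100.1 kb from a gene. Just outside it were chrX:93932121-93932815 at 99.97 kb and chr16:95879126-95880012 at 99.92 kb, each with 4 lists. Merged regions of deserts in fewer lists were left out, 376 of them with 3. Of all 10704 merged regions in deserts, 75.9% appeared in a single list, against 53.1% of merged regions anywhere. A further 10 had enough lists but were 5 kb or wider.

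The farthest members were chr1:102623340-102624419, between the neuronal adhesion genes Cntnap5b and Cdh20, chr14:81858271-81859258, 1835 kb from Olfm4, and chr10:47455139-47455953, 1638 kb from Grik2, a glutamate receptor subunit. Each was in 5 H3K27ac lists. The first had H3K27ac in 4 Fast lists and 1 Fed list, and the others in 3 Fast and 2 Fed. Only the chromosome 10 region had H3K9ac, in 1 list.

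The word desert holds for protein-coding genes only. Noncoding genes of the RefSeq table overlapped 511 desert regions (32.7%), of which 458 overlapped a lncRNA, against 26.0% of near intergenic regions with any noncoding gene. Measured from every gene of the table instead of protein-coding ones, 136 regions were left at the same distance. V, D, J and C segments of antigen receptors are not listed as protein-coding either, and 32 desert regions lay in antigen receptor loci.

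Desert regions gathered in a minority of deserts. The autosomes, X and Y have 1689 gaps of over 200 kb between neighbouring protein-coding genes, and 422 of these held 1558 of the 1563 regions. A single region was found in 167 gaps, while 40 gaps with 10 or more held 583 (37.3%). Gaps with regions had a median length of 615.9 kb and those without one of 380.2 kb. The next desert region was a median of 7.45 kb away, and 850 (54.4%) had another within 10 kb. Over the 785 Mb of sequence that meets the distance rule there were 1.98 regions per Mb, against 11.3 per Mb over 838 Mb of near intergenic sequence. Chromosome 13 held the most, 158.

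**Figure D1:**
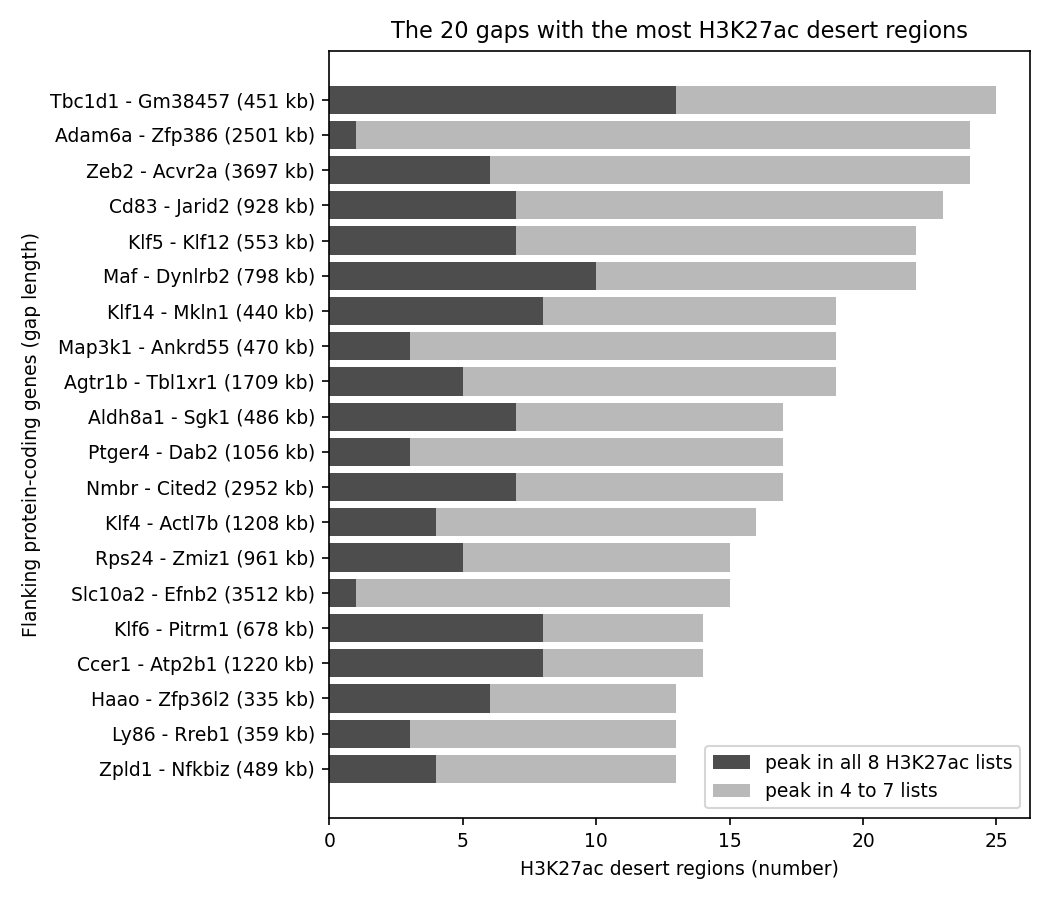
The 20 gaps between neighbouring protein-coding genes with the most H3K27ac desert regions. Bars give the number of regions per gap, dark where the region had a peak in all 8 H3K27ac lists and light where it had one in 4 to 7, with the gap length in kb beside the gene names. The Tbc1d1 to Gm38457 gap has the most regions, 25, with 13 in all lists, and the Adam6a to Zfp386 gap has 24 with 1 in all lists.

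The gap with the most desert regions, 25, was the 450.9 kb between Tbc1d1 and Gm38457 on chromosome 5. Tbc1d1 is a Rab GTPase-activating protein that acts in glucose transporter traffic. In Fed lists 1 and 2 without tetracycline 18 and 22 of the 25 regions had H3K27ac, in the Fast lists 21 and 24, in the Fed lists with tetracycline 18 and 25, and in the Fast lists with tetracycline 22 and 20. No list stood far from the others. This gap also held the members of highest H3K27ac rank: chr5:64625241-64627463 and chr5:64622929-64625052, neighbours within the gap, had median score percentiles of 99.4 and 98.5. H3K9ac was present in 4 and 6 lists there. Both regions reached a score of 3100 in several lists, the highest at any region named here, and tied scores share an averaged rank. Another region of the gap, chr5:64514744-64518351, had both marks in all 8 lists. Neither end of Tbc1d1 had an H3K27ac peak in any list, while Gm38457 had one in 8.

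The 552.8 kb between Klf5, which is needed for proliferation in crypts, and Klf12, both Kruppel-like zinc finger factors, held 22 regions. The 798.1 kb between Maf and Dynlrb2 held the same number and was placed after it only for its greater length. In Fed lists 1 and 2 without tetracycline 11 and 21 of the 22 regions beside Klf5 had H3K27ac, in the Fast lists 15 and 21, in the Fed lists with tetracycline 16 and 21, and in the Fast lists with tetracycline 16 and 20. Lists numbered 2 thus held more of them than lists numbered 1 in each of the 4 groups. The 17 Klf genes in the gene table are a set looked at after these counts were seen. Of them, 6 flanked a gap of over 200 kb and the same 6 flanked a gap with a desert region (35.3% of the 17, with no test). Klf5 and Klf12 share 1 gap among these. Of all 21887 protein-coding genes, 2811 flanked a gap of over 200 kb and 801 (3.66%) one with a desert region. The gap from Klf14 to Mkln1 held 19 regions, that from Klf4, a factor of differentiated epithelium, to Actl7b held 16, that from Klf6 to Pitrm1 held 14, that from Klf7 to Creb1 held 8 and that from Akr1e1 to Klf6 held 7. Klf5 and Klf6 had H3K27ac and H3K9ac at a gene end in 8 lists each. Klf14 was different, with H3K27ac in 0 lists and H3K9ac in 1.

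Between Zeb2, a zinc finger repressor, and Acvr2a, an activin receptor, 3697 kb held 24 regions, of which 17 had Acvr2a as the nearest gene. H3K27ac was present at 16 and 19 of the 24 in the Fed lists without tetracycline, at 18 and 23 in the Fast lists, at 12 and 21 in the Fed lists with tetracycline and at 19 and 21 in the Fast lists with tetracycline. Acvr2a had both marks in 8 lists and Zeb2 had neither in any. The 927.6 kb between Cd83, a surface protein of dendritic and B cells, and Jarid2, a partner of the Polycomb repressive complex, held 23 regions. Here the counts were 13 and 23 in the Fed lists without tetracycline, 13 and 20 in the Fast lists, 17 and 23 in the Fed lists with tetracycline, and 18 and 14 in the Fast lists with tetracycline.

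The remaining desert among the first 5 was the immunoglobulin heavy chain locus. The 2501 kb between Adam6a and Zfp386 on chromosome 12 held 24 regions, and 22 desert regions in the whole genome overlapped a V segment. H3K27ac was present at 23 and 24 of the 24 in the Fed lists without tetracycline, at 16 and 21 in the Fast lists, at 2 and 14 in the Fed lists with tetracycline, and at 17 and 20 in the Fast lists with tetracycline. Fed list 1 with tetracycline was far below the rest, and the highest counts were those of both Fed lists without tetracycline. The 32 regions of all antigen receptor loci counted 28, 30, 17, 28, 5, 22, 23 and 25 in the same order of lists. Immune marker genes with H3K27ac numbered 4, 5, 5, 6, 2, 4, 6 and 6 of 10 in that order. Fed list 1 with tetracycline was the lowest in both counts and also had the fewest H3K27ac peaks of any list, 32392. Elsewhere the orders differed, with 28 regions and 4 marker genes in Fed list 1 without tetracycline, and 17 and 5 in Fast list 1 without it. The parts of immune cells and of list length in these counts were not tested. Fewer cells of a type and less of the mark per cell cannot be told apart in whole crypts. The V segments also lie in families of near-identical copies, where reads may be placed on the wrong copy.

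Some genes of the lists for intestinal regulation flanked deserts that held regions. Of 48 intestinal transcription factors, 20 flanked a gap of over 200 kb and 11 (22.9% of the 48) a gap with a desert region. For 39 signalling genes the counts were 20 and 11 (28.2%), for 22 stem cell and regeneration genes 7 and 3 (13.6%), and for 18 fasting metabolism genes 6 and 4 (22.2%). Of the cell type marker lists, 2 of 10 genes of mesenchyme, vessels and nerve (20%), 1 of 10 immune genes (10%) and 0 of 10 epithelial genes flanked a gap with a region, so a share near that of the regulators was also found in a list of other cell types. Among all 21887 protein-coding genes, 2811 flanked such a gap and 801 (3.66%) one with a desert region. These are counts of list members, with no test.

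The counts that follow are of desert regions in the gap beside a gene, whichever flanking gene is nearer. Among the transcription factors, Maf, a basic leucine zipper factor, had 22 desert regions on the side of Dynlrb2 and 9 on the side of Wwox. Gata6, an endodermal zinc finger factor, had 11 and 3 on its sides. Sox9, which acts in stem and Paneth cells, had 10, Id2 had 7, Prdm1, a factor of the neonatal gut epithelium, had 5, and Nr5a2 and the intestinal homeobox gene Isx had 3 each. Nfia and Nfib had 1 each. Of the signalling genes, the Notch target Hes1 had 11 and the Notch ligand Dll1 had 2. Bmp2 had 5 and 3 on its sides and Bmp4 had 6 and 1, and Tgfbr2, a TGF-beta receptor, had 4. Negative regulators of growth factor signalling were Spry2 with 4, Dusp6 with 3 and Dusp4 with 2, and ligands were Fgf9 with 5, Fgf20 with 1 and Shh with 1.

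In the stem cell list, Lrig1 had 4 regions in the gap beside it, Axin2, a target of Wnt signalling, had 3 and Olfm4 had 1. In the fasting list, Foxo1, a factor held back by insulin, had 8, the insulin receptor substrate Irs2 had 5, Nr3c1, the glucocorticoid receptor, had 5 and Ppargc1a, a coactivator of mitochondrial and fasting genes, had 3. For some of these genes most regions lay nearer to the gene across the gap. The named gene was the nearest for 0 of the 3 regions beside Axin2, 0 of 1 beside Shh, 1 of 5 beside Nr3c1, 1 of 5 beside Fgf9 and 2 of 10 beside Sox9, but for 7 of 8 beside Foxo1, 4 of 5 beside Irs2 and 14 of 16 beside Klf4. Of the 8 Foxo1 regions 4 were in all 8 lists, and of the 5 of Irs2 3 were. Gata6, Klf5, Maf, Hes1, Foxo1 and Irs2 had both marks at a gene end in 8 lists, whereas Bmp4 had H3K27ac in 1 and H3K9ac in 0, and Nfia and Fgf20 had neither mark in any list.

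The 801 genes beside deserts with a region were more often marked at their own ends than the 2010 beside deserts without one. A share of 47.3% of the first set had an H3K9ac peak within 1 kb of an end (mean of 8 lists, range 39.95 to 54.1%), against 30.5% of the second (24.9 to 35.8%). The difference was 16.8 percentage points (SD 1.73, n = 8 lists) and was positive in 8 of 8 lists (exact sign-flip permutation test over lists, two-sided, p = 0.0078, the smallest it can give, adjusted p = 0.0156 over 4 tests added after the data were seen). Among all protein-coding genes the share was 46.9%, so the flanking genes with a desert region were close to genes at large. For H3K27ac the shares were 47.6% and 28.5%, a description only.

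H3K9ac, which had no part in choosing the regions, was less frequent in deserts than at any nearer class. The share of desert regions with an H3K9ac peak was 4.67% and 23.1% in Fed lists 1 and 2 without tetracycline and 19.6% and 13.0% in the Fast lists. With tetracycline it was 12.0% and 13.6% in the Fed lists and 25.5% and 17.9% in the Fast lists. Near intergenic regions ran from 10.5% in Fed list 1 to 35.0% in Fed list 2, both without tetracycline, and were above the deserts in each list. The mean difference, desert minus near intergenic, was -8.64 percentage points (SD 1.97, n = 8 lists, exact sign-flip permutation test, two-sided, p = 0.0078). Against within-gene regions the difference was -14.0 points (SD 3.18) and against gene-end regions -59.3 points (SD 6.20), again below 0 in 8 of 8 lists (exact sign-flip permutation test, p = 0.0078 each). This p is the smallest the test allows, and adjustment over the 3 comparisons left it as it was. With the same number of top-scoring H3K9ac peaks from each list, the differences were smaller, -4.80, -8.55 and -53.6 points in that order (exact sign-flip permutation test, p = 0.0078 each). With the lists of a sample averaged, the 4 samples per mark were all below 0, but the smallest p that 4 samples allow is 0.125, so no test at that level can pass 0.05.

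**Figure D2:**
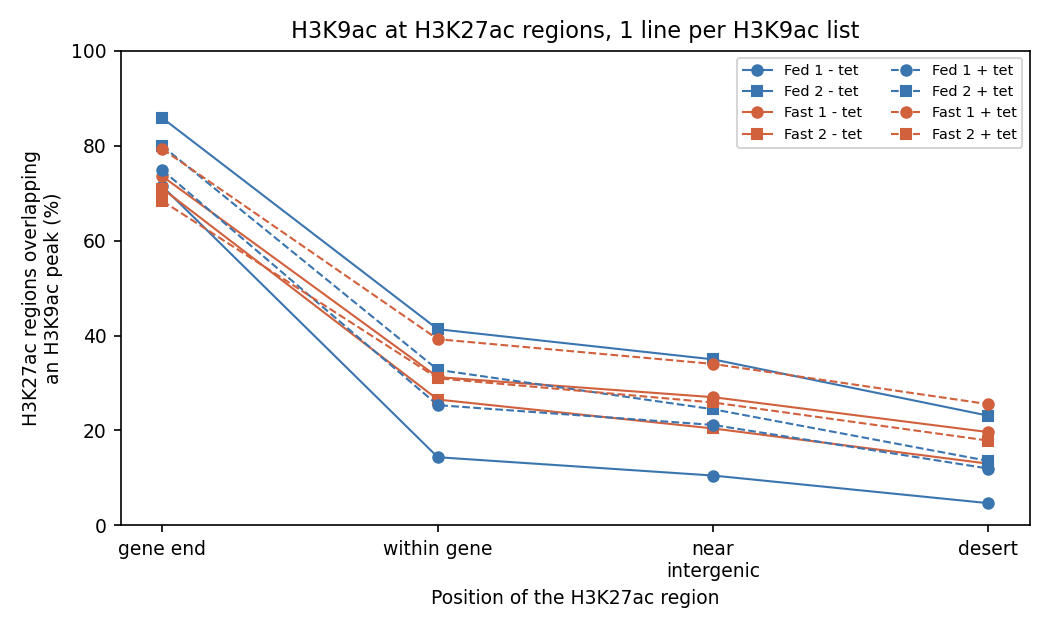
Percentage of H3K27ac regions that overlap an H3K9ac peak, by position of the region, with 1 line per H3K9ac list. Fed lists are blue and Fast lists orange, circles are lists 1 and squares lists 2, and dashed lines are with tetracycline. In every list the share falls from gene ends to deserts, where it lies between 4.67% and 25.5%.

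The gap between deserts and near intergenic regions was also present among regions with the same number of H3K27ac lists. At 4 H3K27ac lists 43.7% of desert regions had H3K9ac in any list, against 52.2% of near intergenic ones. At 8 lists the shares were 82.1% and 91.5%. Those at 5, 6 and 7 lists were 45.1%, 54.3% and 63.6% in deserts and 59.5%, 67.5% and 78.2% near genes. H3K9ac was seen in 0 lists at 623 desert regions (39.9%), against 25.5%, 20.2% and 2.67% of near intergenic, within-gene and gene-end regions. It was present in 4 or more lists at 150 (9.60%, against 20.03% near genes) and in all 8 at 6.

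Along the distance scale the mean share over the 8 lists was 27.1% at 1 to 10 kb from a gene, 24.0% at 10 to 50 kb and 21.1% at 50 to 100 kb. Past the threshold it was 17.4% at 100 to 150 kb (579 regions), 19.5% at 150 to 200 kb (354), 15.2% at 200 to 300 kb (324), 11.2% at 300 to 500 kb (199) and 10.6% beyond 500 kb (107). The 2 bins nearest the threshold on the desert side were not in order, and the SD over lists was between 5.84 and 8.06 points in the desert bins. Median width and median rank were also lowest beyond 500 kb, 1054 bp and percentile 39.9, and their part in the lower share was not tested.

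**Figure D3:**
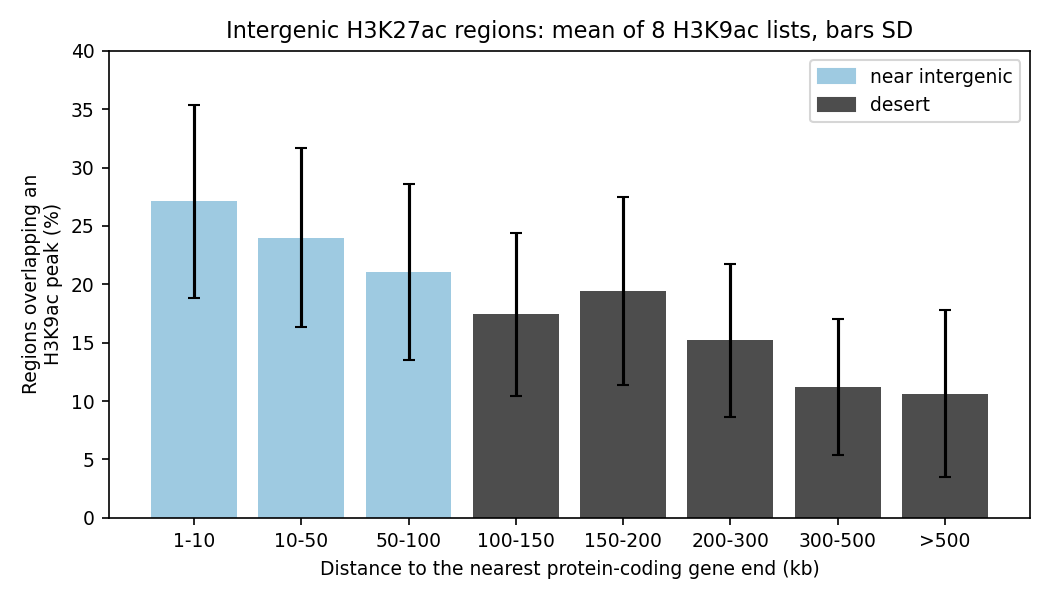
Share of intergenic H3K27ac regions with an H3K9ac peak (%), as the mean of 8 lists with the SD as error bars, by distance to the nearest protein-coding gene end in kb. Light bars are near intergenic regions and dark bars deserts. The mean is 27.1% nearest to genes and 10.6% beyond 500 kb.

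The 69 desert regions with a noncoding promoter window carried more H3K9ac than the other 1494. Their shares were 8.70% and 34.8% in the Fed lists without tetracycline, 29.0% and 14.5% in the Fast lists, 23.2% and 23.2% in the Fed lists with tetracycline, and 40.6% and 30.4% in the Fast lists with tetracycline. The mean was 25.5% against 15.7%, a difference of 9.81 points (SD 4.71, n = 8 lists, higher in 8 of 8, exact sign-flip permutation test, two-sided, p = 0.0078, adjusted p = 0.0156 over the same 4 added tests). In the central 500 bp of each region alone, the difference was 7.79 points. Widths differed as well, with medians of 1388 and 1230 bp, while the mean number of H3K27ac lists was 6.28 and 6.16. The test was chosen after the data were seen.

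In base composition these windows were nearer to other noncoding promoters than to those of protein-coding genes. Median GC content was 47.3% in the 77 windows, 48.3% in all 11588 noncoding windows and 56.3% in 21263 protein-coding windows, and the median number of CpG was 4, 4 and 13. The GC box was found in 19.5% of the 77, in 16.3% of noncoding and in 35.7% of all promoter windows of this length. CCAAT was in 45.5%, 35.97% and 37.4%, in the same order. TATAAA was in 16.9%, 15.5% and 13.6%, the AP-1 motif TGANTCA in 10.4%, 9.31% and 7.81%, and CAAAGTCCA, a form of the HNF4 motif, in 0, 0.518% and 0.475%. All were searched on both strands, and a match describes letters in the window, not a bound site.

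The regions with H3K9ac in all 8 lists included, beside the chromosome 5 region and that of Gm29998 (chr19:33391336-33392705), chr8:20121613-20124240, chr1:23255614-23257715 and chr7:58398530-58400244. All of these were in 8 H3K27ac lists too. The chromosome 1 region was 108.7 kb from Ogfrl1, and the chromosome 7 region lay on a tRNA gene 255.9 kb from Atp10a, a phospholipid flippase. The chromosome 8 region was at percentiles between 71.5 and 95.1 of its H3K27ac lists and the chromosome 7 region between 31.1 and 79.7, so H3K9ac was found in all lists at regions of high and of middling H3K27ac rank.

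More desert regions were held by the Fast than by the Fed H3K27ac lists, by less than the spread between lists. The counts were 897 and 1378 in the Fed lists without tetracycline, 1049 and 1437 in the Fast lists, 935 and 1358 in the Fed lists with tetracycline, and 1318 and 1257 in the Fast lists with tetracycline. Fed and Fast lists overlapped, and the lowest counts were those of both Fed lists numbered 1. The log2 ratio of Fast to Fed mean counts was 0.13 without and 0.17 with tetracycline, 0.15 in all, against a pooled SD of 0.33 between lists of a group. The lists also differ in their total number of peaks, 32392 to 68545 in the H3K27ac set and 17249 to 99050 in the H3K9ac set. With the same number of top-scoring H3K27ac peaks from each list the ratio was -0.017.

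**Figure D4:**
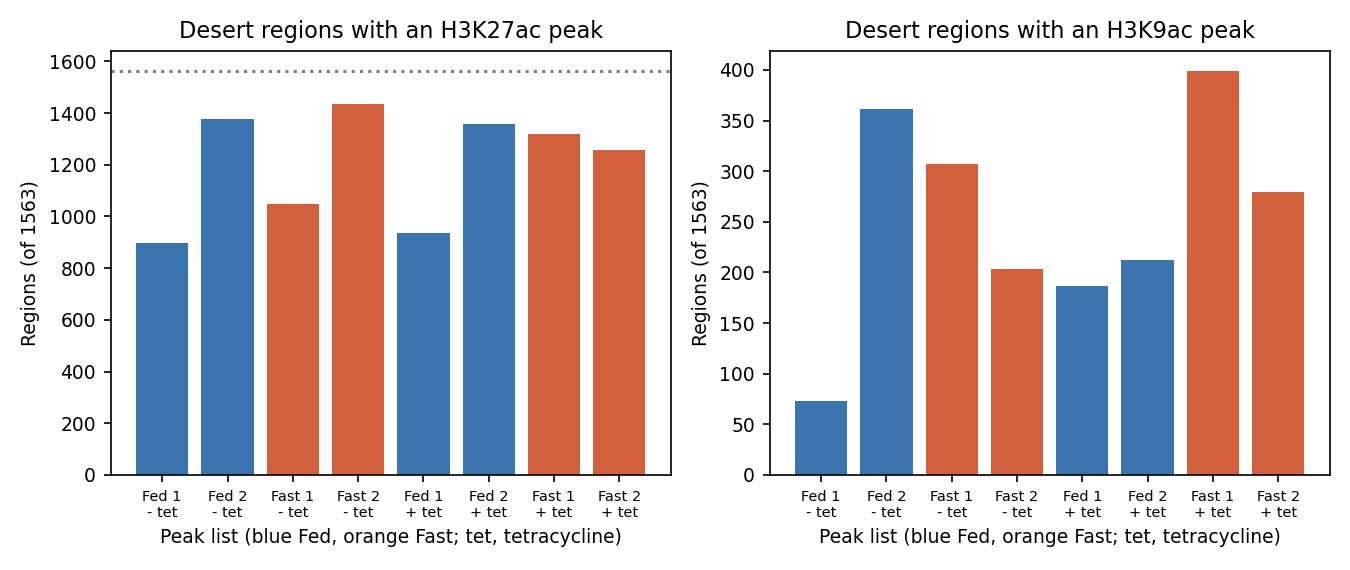
Number of the 1563 desert regions with an H3K27ac peak (left) and with an H3K9ac peak (right) in each list, Fed in blue and Fast in orange. The dotted line marks all 1563. H3K27ac counts run from 897 to 1437 and H3K9ac counts from 73 to 399, and the Fed and Fast bars overlap in both panels.

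A small set of desert regions was marked in the Fast lists alone. H3K27ac was present in all 4 Fast lists and no Fed list at 51 regions (3.26%), against 1.25% of all 35844 regions. The reverse, all 4 Fed and no Fast list, was met by 4 (0.256%), against 0.262%. Near intergenic, within-gene and gene-end regions gave 1.57%, 1.45% and 0.324% in the Fast direction. Such a region is by definition in exactly 4 lists, which desert regions more often were. Among the 334 desert regions in exactly 4 lists the share was 15.3%, and among near intergenic ones it was 9.60%. Because the rule used these H3K27ac lists, the counts have no test.

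**Figure D5:**
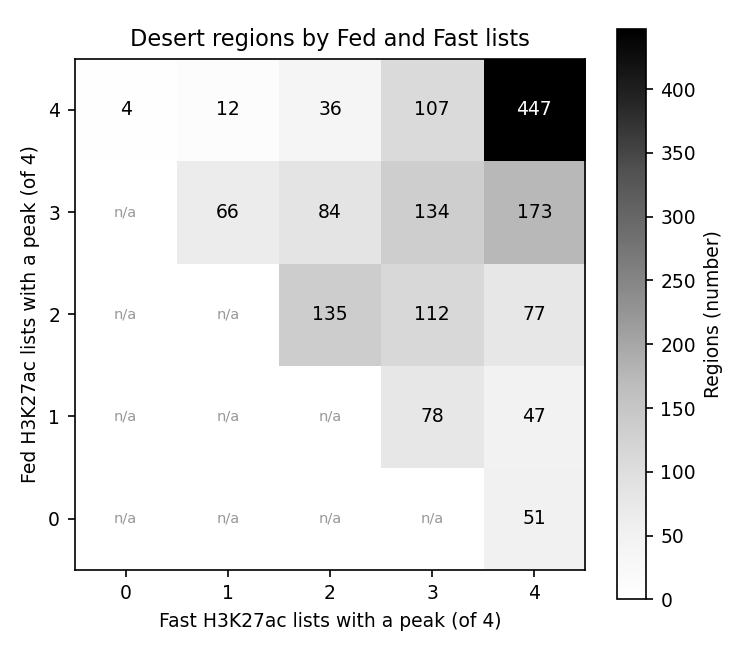
Number of desert regions by how many of the 4 Fast (x axis) and 4 Fed (y axis) H3K27ac lists had a peak there. Shading follows the number, and combinations under 4 lists in all are not members (n/a). The largest cell is 447 regions in all lists, and the corners are 51 in the 4 Fast lists alone and 4 in the 4 Fed lists alone.

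Regions with more Fast than Fed lists numbered 538 (34.4%, against 25.2% of all regions) and those with more Fed lists 309 (19.8%, against 18.9%). Without tetracycline 97 desert regions (6.21%, against 3.65%) were in both Fast and no Fed list and 33 (2.11%, against 1.78%) the reverse. With tetracycline there were 118 (7.55%, against 4.15%) and 32 (2.05%, against 1.98%). The counts differed more between list numbers than between tetracycline states. In lists numbered 1, 191 regions (12.2%, against 8.76%) were in both Fast and no Fed list and 35 (2.24%, against 1.58%) the reverse, while in lists numbered 2 the counts were 59 (3.77%, against 1.79%) and 31 (1.98%, against 2.14%). With regions rebuilt from 1 list per sample and a minimum of 2 of 4 lists, lists numbered 1 gave 317 Fast-only desert regions of 1566 (20.2%, against 13.5% of all regions so built) and 43 Fed-only ones (2.75%, against 1.85%). Lists numbered 2 gave 147 of 2054 (7.16%, against 3.73%) and 149 (7.25%, against 5.66%). With the same number of top-scoring peaks from each list, 35 of 1064 desert regions (3.29%, against 1.15%) were Fast-only and 13 (1.22%, against 0.746%) Fed-only.

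The 51 Fast-only regions were spread over 46 gaps or chromosome ends and 18 chromosomes, with a median width of 1167 bp. The highest in rank was chr4:97465274-97466659, 111.4 kb from Nfia, a nuclear factor I gene. Its percentiles were 98.2 and 89.9 in the Fast lists without tetracycline and 93.2 and 77.5 with it, so it was a strong peak in each Fast list and had none in 4 Fed lists. H3K9ac was present there in 1 list, Fast list 2 without tetracycline. The next 4 were chr7:130043475-130045358, 117.1 kb from the growth factor receptor gene Fgfr2, chr13:3125339-3126584, 411.5 kb from Gdi2, chr16:95859842-95861493, between Ets2 and Psmg1, and chr7:73196429-73198777, 176.7 kb from Rgma, a BMP co-receptor. The region near Gdi2 lay at a chromosome end, with no protein-coding gene on its other side, and overlapped a pseudogene. Percentiles of these 4 regions ran from 47.3 to 81.8 over the Fast lists. The region near Rgma had H3K9ac in 2 Fast lists and 1 Fed list, that near Gdi2 in 1 of each, and the other 2 in 0.

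The 4 Fed-only regions were chr15:5537180-5538021, 293.0 kb from Ptger4, a prostaglandin E2 receptor, a region on chromosome 18 at 114.3 kb from Gata6, chr8:115558661-115559397, 143.9 kb from Maf, and chr14:86476821-86477811, 177.5 kb from the formin gene Diaph3. Median percentiles were 44.7, 43.9, 32.4 and 25.04 in that order, each over the Fed lists, against a median of 49.4 for the 51 Fast-only regions over the Fast lists. H3K9ac was found at none of the 4 in any list.

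A different kind of contrast was seen at chr1:154033456-154035276, 123.7 kb from Glul, the glutamine synthetase gene. It had H3K27ac in 7 lists and was among the 3 members of highest median rank. Percentiles were 99.1, 98.3, 98.9 and 98.4 in the Fast lists, but 69.2, 55.9 and 65.3 in 3 Fed lists, with no peak in Fed list 1 without tetracycline. No Fed list reached the Fast range. Since ranks come from lists of different lengths, they describe each list and show no change between them. An H3K9ac peak was present in 3 Fast lists and 2 Fed lists.

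H3K9ac at the desert regions did not pass the test for fasting or tetracycline. The mean share was 13.9% in the Fed lists and 16.3% in the Fast lists without tetracycline, and 12.8% and 21.7% with it. Fast exceeded Fed by 5.68 points (means 19.0% and 13.3%, exact permutation within tetracycline state, two-sided, p = 0.278, adjusted p = 0.722 over 4 contrasts), and lists with tetracycline exceeded those without by 2.13 points (17.2% and 15.1%, exact permutation p = 0.722, adjusted the same). The fasting difference was 2.43 points without and 8.93 points with tetracycline, and its change of 6.49 points had an exact permutation p of 0.611. Desert regions exceeded near intergenic ones in the fasting difference by 1.62 points (exact permutation p = 0.389), and the adjusted p was 0.722 for both. The smallest p that 36 arrangements allow is 0.056, so these tests could not reach 0.05.

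List number split the fasting difference in H3K9ac. It was 15.0 and 13.6 points between lists numbered 1 without and with tetracycline, and -10.1 and 4.29 points between lists numbered 2. The mean was 14.3 points in lists 1 and -2.91 in lists 2, and with equal numbers of top-scoring peaks per list it was -0.93. Immune marker genes with H3K9ac at an end numbered 2 and 3 of 10 in the Fed lists without tetracycline, 5 and 2 in the Fast lists, 2 and 1 in the Fed lists with tetracycline and 5 and 1 in the Fast lists with tetracycline. The highest counts, of 5, were those of both Fast lists numbered 1. Those lists also had the most H3K9ac peaks, 99050 without and 97764 with tetracycline. The Fed lists numbered 1 had 17249 and 24643. Ptprc, the pan-leukocyte gene, was at 0 in each H3K9ac list. The parts of immune cells and of list length in the difference were not tested. Only 2 desert regions had H3K9ac in all 4 Fast and no Fed list (0.128%, against 0.145% of all regions), and 0 had the reverse (against 0.0753%).

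At the 51 Fast-only regions, chosen by H3K27ac, the H3K9ac lists held 1 and 5 of them in the Fed lists without tetracycline, 12 and 4 in the Fast lists, 3 and 2 in the Fed lists with tetracycline, and 7 and 5 in the Fast lists with tetracycline. Fed and Fast lists overlapped. The mean share was 13.7% in the Fast and 5.39% in the Fed lists. The other 283 desert regions in exactly 4 H3K27ac lists had means of 10.8% and 5.74%, and all desert regions 19.0% and 13.3%. Because the 51 qualified through their Fast lists alone, these values are a description with no test.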

How the data were processed

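H3K27ac and H3K9ac CUT&Tag of 8 samples was used as deposited peak lists, 2 per sample. Per the submitters' processing notes, FastQC, Bowtie, SAMtools and the mm10 build were used; the peak caller and its settings are not given in the sources used here, though peak names begin with MACS per the files. The authors deposited each peak with a score of no stated unit, at least 50 in every list, which served to order or select peaks inside 1 list and nothing else. A percentile is the score's rank among the list's peaks, ties averaged, and a region takes its highest peak. Reads and depth are not in peak lists, so depth is unknown and a missing peak is not absence of the mark; the names of the lists describe them as downsampled.

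Overlapping H3K27ac peaks (at least 1 bp) on chromosomes 1 to 19, X and Y were merged and placed against 21887 protein-coding genes of RefSeq GRCm38.p6, whose base sequence is that of mm10. H3K9ac was scored by an overlap of at least 1 bp. Tests were exact sign-flip permutations over 8 lists and exact label permutations within strata (36), two-sided, with Benjamini-Hochberg adjustment and a threshold of 0.05, checked on simulated data. Members and lists were chosen with earlier results of these data known; motifs, printed sequences and 4 tests were added after the data were seen, 2 of which, on regions chosen through the Fast lists, are not used. Regions named were the highest by rank, distance, H3K9ac lists or Fed and Fast class, the deserts were the 5 fullest (of a tie, the shorter), and genes were those that flank them or belong to the lists; other deserts named were chosen after their counts were seen. No genome of the build was used, so sequence comes only from the promoter and miRNA tables. Python 3.11.15, numpy 2.4.6, pandas 2.3.3 and matplotlib 3.10.9 were used.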

Additional observations from a re-analysis of the deposited data

Results flagged for a closer look

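In the Fed lists, the region chr15:5537180-5538021 near Ptger4 had H3K27ac score percentiles of 42.0, 49.5 and 47.4, and 1 of 5.30 in Fed list 1 with tetracycline, set apart because its gap to the next value took up most of the range of the 4. In the Fast lists, chr5:64625241-64627463 in the Tbc1d1 desert had percentiles of 99.7, 99.6 and 99.5, and 98.3 in Fast list 2 without tetracycline. Its score there was 3100, the same as in the other Fast lists, so the lower percentile is not a lower score. The H3K27ac lists chose both regions, so these values are a description. Chance flags about 1 in 20 such groups.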

How the results depend on the processing

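The lower H3K9ac share in deserts than in near intergenic, within-gene and gene-end regions kept its direction in each alternative tried, and the difference from near intergenic regions lay between -11.1 and -4.80 points with all lists. With lists 1 or lists 2 left out it was -9.56 to -7.71 points, -16.0 to -12.1 points against within-gene and -59.4 to -59.3 against gene-end regions, and with the lists of a sample averaged -8.64, -14.0 and -59.3. In these cases 4 values remain, and p cannot go below 0.125. Leaving out lists 1 or lists 2 gave -2.91 to 14.3 points for Fast minus Fed, -2.34 to 6.59 for tetracycline, -1.41 to 14.4 for the interaction and -0.42 to 3.66 for the fasting difference of deserts over near intergenic regions. With equal numbers of top-scoring peaks, Fast minus Fed was -0.93 points and the log2 ratio of members -0.017. The Fed-only count was 13 (1.22% of 1064, against 0.746% of all regions so built). The cause was not tested.

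Fast-only and Fed-only regions numbered 80 and 7 with a distance of over 50 kb (2.78% and 0.243% of 2877), 20 and 1 with over 200 kb (3.17% and 0.159% of 630) and 3 and 1 against all genes (2.21% and 0.735% of 136), against 1.25% and 0.262% of all regions. Leaving out lists 1 or lists 2 gives a looser rule, 1 list per sample and a minimum of 2 of 4 lists, so its counts are not like for like. Fast-only regions then numbered 147 without lists 1 (7.16%, against 3.73% of all regions so built) and 317 without lists 2 (20.2%, against 13.5%). Fed-only regions numbered 149 (7.25%, against 5.66%) and 43 (2.75%, against 1.85%). The log2 ratio was -0.061 and 0.45. With the list number as a replicate block, Fast minus Fed was 5.68 points (exact permutation p = 0.375) and tetracycline 2.13 (exact permutation p = 0.625). The interaction was 6.49 (exact permutation p = 0.75) and the desert excess 1.62 (exact permutation p = 0.375). Without the block the smallest possible p was 0.056, above the threshold, and the block allows fewer arrangements. No call could therefore change, and the comparison cannot decide whether the block matters. The list numbers come from list names, and nothing in the labels says that they pair mice. Depth is unknown in peak lists.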
